A study of Mus musculus with 26 samples.

Results

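The subject here is a set of 4802 stretches of open chromatin lying between genes, found in the frontal cortex of mice that carry a frameshift variant of Adnp on a single allele (HET) and not found in their wild-type (WT) counterparts. Accessibility had been measured with ATAC-seq, in which the Tn5 transposase cuts exposed DNA and places where cuts pile up are called as peaks. A peak of the HET list belonged to the set when it had no base in common with any peak of the WT list, lay more than 1 kb from every gene start and touched no gene body of the Ensembl models used for RNA counting. The HET list held 30862 peaks, so the set made up 15.6% of it and 35.3% of its 13618 peaks without a WT partner. The WT list was shorter, at 19272 peaks. Members were thus chosen by the peak positions of the 2 lists and selected on no RNA value. Because those lists set the membership, the absence of a WT peak is a selection and not a result.

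RNA came from 7 HET and 7 WT mice, which the series describes as adolescent littermates, and peak positions came from 1 list per genotype. By label there were 3 HET and 3 WT samples for ATAC-seq, besides 1 called PAT and 1 called Control, while the protocol text speaks of an n of 2. The WT mice carried no agent or allele named in the labels, and both genotypes were described as frontal cortex throughout. By its deposited name each list is a merge of 2 samples of its genotype. The sources used here do not say whether reads or peaks were merged, or how many animals a sample held. The lists hold 3 columns only, with no height or score for a peak. Peaks can therefore be counted, measured and placed, but no difference in accessibility between genotypes was tested.

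Most regulatory DNA outside promoters consists of enhancers, which bind transcription factors, lose nucleosomes and can act on a gene start at some distance, often in a single cell type. Insulator sites bound by CTCF are a further class of open intergenic DNA. ADNP is a zinc-finger and homeobox protein that joins the remodeller CHD4 and HP1 proteins in a complex that keeps chromatin closed and shares many binding sites with CTCF. Loss of a working ADNP allele causes a neurodevelopmental syndrome in humans.

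No genome sequence was used, so the bases of the peaks themselves are not shown. Some members, 64 of 4802 (1.33%), shared at least 1 base with a window from 250 bases before to 50 after the start of a RefSeq transcript (build GRCm38.p6), a start that the Ensembl models place elsewhere or do not have. For shared intergenic peaks of the HET list this share was 2.46% of 3167, and for intergenic peaks in the WT list only it was 0.949% of 738. The start base itself was covered by 46 members (0.958%), against 2.05% of shared and 0.813% of WT-only intergenic peaks. The following 5 stretches are the 250 bases before the start in 5 of these windows, read 5′ to 3′ along the transcript from RefSeq, with the bases inside the member in capitals. They are shown because they lie beside genes described below or hold a searched motif within the peak.
Gm32630 (chr7:16932150-16932399, minus strand): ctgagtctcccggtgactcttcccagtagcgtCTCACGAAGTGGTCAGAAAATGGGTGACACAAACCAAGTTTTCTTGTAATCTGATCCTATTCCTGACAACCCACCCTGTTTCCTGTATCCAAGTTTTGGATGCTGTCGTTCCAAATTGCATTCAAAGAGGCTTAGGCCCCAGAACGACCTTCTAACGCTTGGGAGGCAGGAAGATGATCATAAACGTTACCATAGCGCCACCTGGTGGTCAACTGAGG
Gm30837 (chr5:63624225-63624474, minus strand): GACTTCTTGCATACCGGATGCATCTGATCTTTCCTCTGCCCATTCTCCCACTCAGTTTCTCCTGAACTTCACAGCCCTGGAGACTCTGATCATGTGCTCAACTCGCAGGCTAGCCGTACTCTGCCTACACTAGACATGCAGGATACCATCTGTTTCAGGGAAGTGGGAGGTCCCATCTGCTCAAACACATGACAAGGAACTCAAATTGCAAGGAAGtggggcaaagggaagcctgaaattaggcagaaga
Gm42400 (chr7:81731211-81731460, plus strand): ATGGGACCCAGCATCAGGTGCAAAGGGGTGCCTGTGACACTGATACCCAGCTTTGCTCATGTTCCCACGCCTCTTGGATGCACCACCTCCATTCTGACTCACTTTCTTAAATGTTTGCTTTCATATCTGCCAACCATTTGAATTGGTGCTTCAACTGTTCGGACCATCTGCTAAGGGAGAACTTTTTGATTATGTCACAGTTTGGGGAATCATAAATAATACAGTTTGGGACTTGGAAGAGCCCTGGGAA
Gm14170 (chr2:156401373-156401622, minus strand): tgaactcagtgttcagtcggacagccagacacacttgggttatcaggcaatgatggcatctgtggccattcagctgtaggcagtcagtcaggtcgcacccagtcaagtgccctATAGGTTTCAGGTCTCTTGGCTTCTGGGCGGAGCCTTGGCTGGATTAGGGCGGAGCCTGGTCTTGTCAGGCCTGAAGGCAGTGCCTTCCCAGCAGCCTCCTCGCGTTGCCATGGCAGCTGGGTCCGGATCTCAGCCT
Robo2 (chr16:75092771-75093020, minus strand): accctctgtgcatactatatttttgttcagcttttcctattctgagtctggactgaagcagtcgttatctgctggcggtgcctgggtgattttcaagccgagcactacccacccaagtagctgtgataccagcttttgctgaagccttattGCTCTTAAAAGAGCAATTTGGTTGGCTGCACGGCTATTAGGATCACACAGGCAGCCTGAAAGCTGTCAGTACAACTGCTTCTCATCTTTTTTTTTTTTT

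Gm32630 starts under the member upstream of Calm3, a gene whose RNA fell. Its last bases before the start hold a match to the CTCF core motif, at bases 229 to 240 on the opposite strand, inside the peak. The Gm30837 stretch shares most of its bases with a member near Nwd2, which does not reach the start, and has 3 copies of the neuronal E-box CAGATG on the opposite strand, beginning at bases 21, 147 and 174. The Gm42400 stretch lies wholly inside its peak, with the AP-1 motif TGANTCA at bases 95 to 101 and an E-box at bases 165 to 170. For Gm14170 the X-box motif GTTGCCATG stands at bases 218 to 226, inside the peak. Robo2 encodes an axon guidance receptor for Slit proteins, and its RefSeq start upstream of the Ensembl one fell under a member at chr16:75092112-75092869.

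Over all 64 members with such a window of 300 bases (250 before and 50 after the start, the best-covered window of each member), 60 windows belonged to long non-coding RNAs and 4 to coding genes. A match to CAGATG on either strand was present in 23 (35.9%), against 21.8% of 11588 windows of long non-coding RNAs and 17.2% of all 32851 RefSeq windows. Within the peak itself the E-box was found in 14. The AP-1 motif was found in 9 (14.1%), against 9.31% of non-coding windows, and lay in the peak in 6. CTCF core matches were in 2 (3.12%), against 0.552%, and X-box matches in 2, against 0.932% of non-coding windows. For each of these 2 motifs only 1 window had its match inside the peak. No window held the MEF2 motif or TGACGTCA, the cAMP response element. Motif searches covered both strands, a palindromic match was counted once per window, and the windows are too few and too selected for these shares to speak for the set. The median GC content of the windows was 49.0%, against 48.3% for non-coding and 52.7% for all windows.

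Members were spread over every autosome and both sex chromosomes. Counts per autosome ran from 105 on chromosome 19 to 448 on chromosome 1. Per Mb of the span covered by genes, the lowest density was 1.31 on chromosome 7, the median 1.86 and the highest 2.49 on chromosome 15. Shared intergenic peaks of the HET list ran from 0.957 per Mb on chromosome 16 to 1.73 on chromosome 11, as the plot by chromosome shows. The X chromosome held 72 members, or 0.429 per Mb, which was below every autosome. Shared intergenic peaks were also sparse there, at 0.441 per Mb. Only 2 members lay on the Y chromosome. Of all intergenic HET peaks, 60.3% were members, and this share ran from 56.5% on chromosome 2 to 65.1% on chromosome 16, with 49.3% on X. Across gene compartments of the HET list, 57.9% of peaks in gene bodies and 17.8% of peaks at gene starts were without a WT partner. In the other direction, 18.9% of the 3904 intergenic WT peaks had no HET partner.

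**Figure D1:**
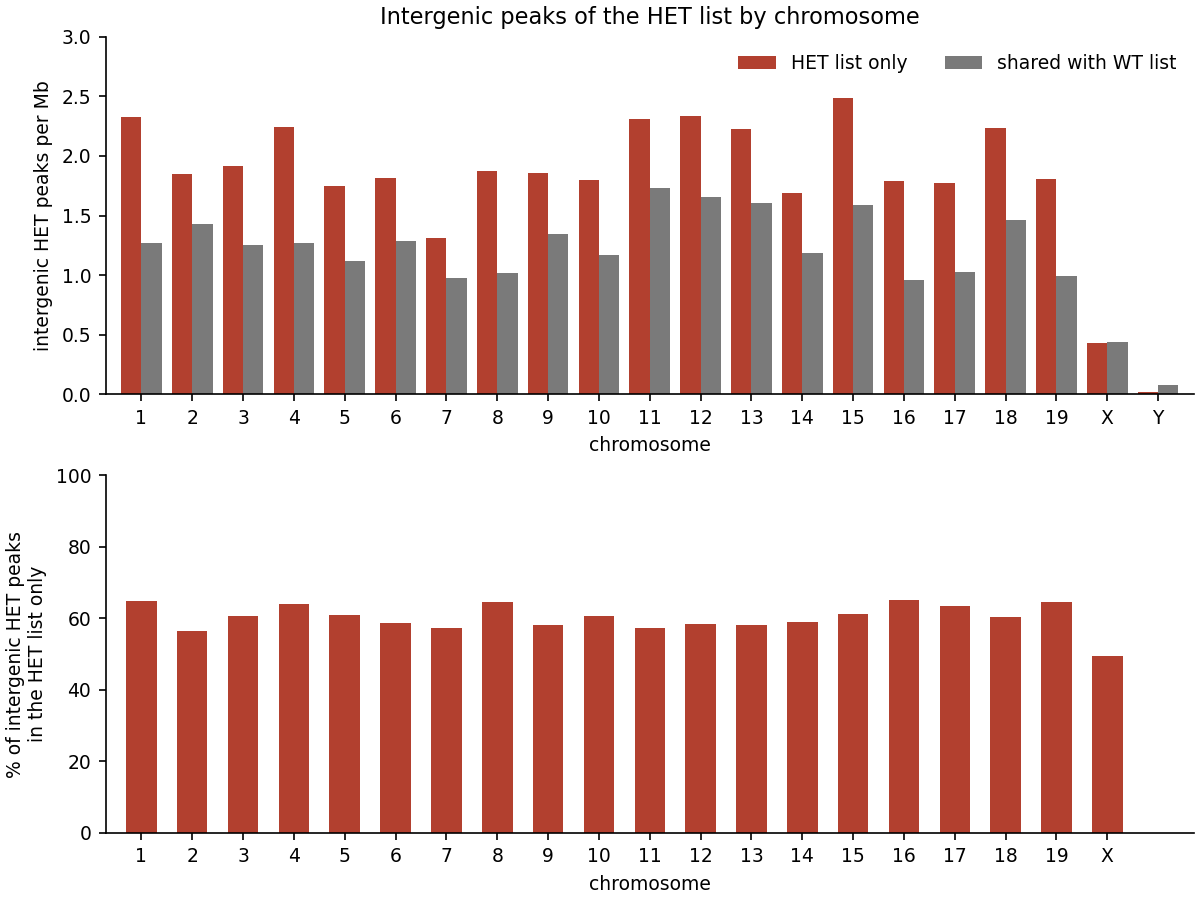
Upper panel: intergenic peaks of the HET list per Mb of gene-covered span on each chromosome, in red those in the HET list only and in grey those shared with the WT list. Lower panel: members as a percentage of all intergenic HET peaks, which lies between 56.5% and 65.1% on every autosome and at 49.3% on X (Y, with 2 members, is left out).

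Members were narrow. Their median width was 275.5 bp, with quartiles of 183 and 368 bp and a range of 139 to 1179 bp. Shared intergenic HET peaks had a median of 468 bp. Intergenic peaks in the WT list only were also narrower than shared ones, at 316 bp. Under 200 bp lay 31.5% of members, 6.06% of shared and 16.5% of WT-only intergenic peaks. HET-only peaks in gene bodies had a median of 268 bp, and those at gene starts were wider, at 347 bp. Together the members covered 1403 kb. The narrowest width in the list, 139 bp, was shared by 36 of them.

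The lists differ in length. When the HET list was reduced to its 19272 widest peaks, an alternative chosen after seeing the data, 1434 members were left with a median of 425 bp. Of the members, 736 were at or above the median width of all HET peaks. No source used here gives the depth of the ATAC-seq libraries, and its part in the number of members was not tested.

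Distance to the nearest gene start was similar in the compared sets. For members the median was 21700 bp, with quartiles of 9314 and 48302 bp and a maximum of 577068 bp. It was 18981 bp for shared and 22954 bp for WT-only intergenic peaks. Between 1 and 5 kb lay 578 members (12.04%), between 5 and 20 kb 1701 (35.4%), between 20 and 50 kb 1368 (28.5%) and between 50 and 200 kb 1060 (22.1%). Beyond 200 kb were 95 (1.98%). Upstream of the nearest start lay 2849 members (59.3%), close to the 60.2% of shared and 59.9% of WT-only intergenic peaks. In all 3 sets the rule leaves out gene bodies, which lie downstream of their own start.

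**Figure D2:**
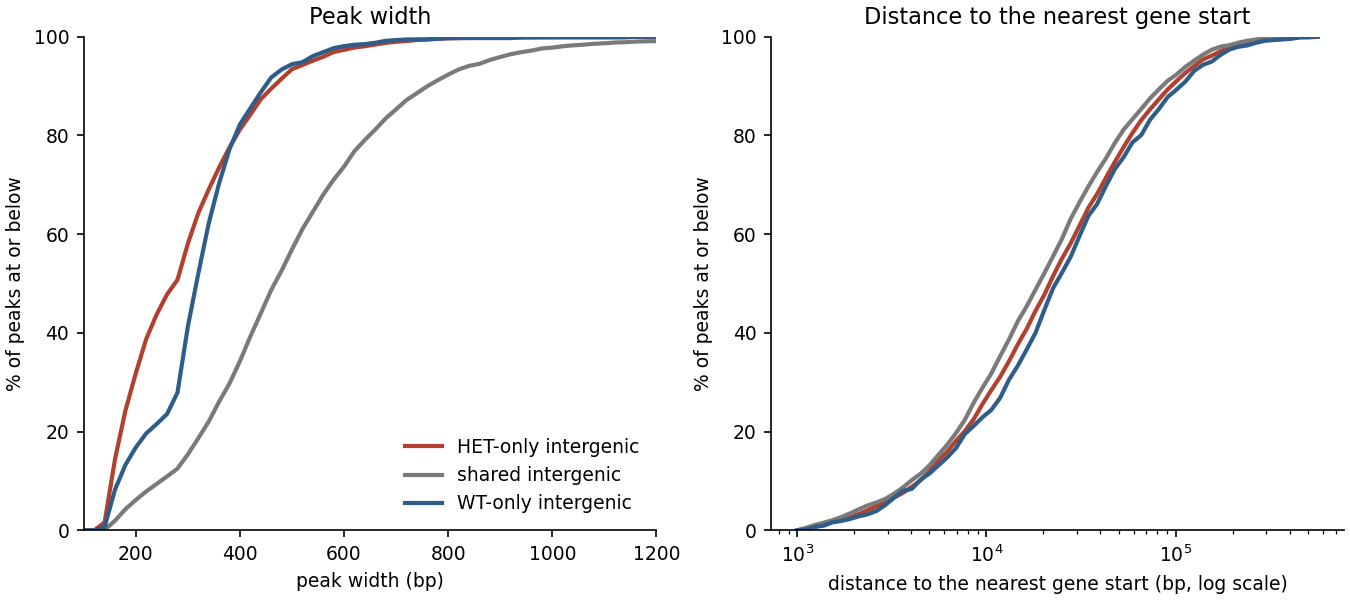
Cumulative percentage of peaks by width (left, bp) and by distance to the nearest gene start (right, bp, log axis) for HET-only, shared and WT-only intergenic peaks. The width curve of HET-only peaks rises first, with medians of 275.5, 468 and 316 bp in that order, while the 3 distance curves run close together.

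Few members sat at the edge of a WT peak. The median gap to the nearest WT peak was 40507 bp, and 1263 members (26.3%) were over 100 kb from one. Only 48 were within 500 bp and 99 within 1 kb. Just outside the overlap rule, 297 of the shared intergenic HET peaks were covered by WT peaks over less than 50% of their length. At the 1 kb limit, 73 members lay over 1 and up to 1.5 kb from a gene start, with a median width of 253 bp. HET-only peaks outside gene bodies and over 0.5 and up to 1 kb from a start numbered 90, with a median of 274.5 bp. Members closest to the limit among tested genes were those of Galm (1005 bp), Tuba1a (1015 bp), Nrn1 (1015 bp), Nrp1 (1022 bp) and Fxyd3 (1033 bp). Of these 5 genes edgeR called 0 in RNA, with 2 at an unadjusted p under 0.05 and 1 called by DESeq2. Over all tested genes these shares were 0.970%, 22.2% and 8.66%.

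The label intergenic held less well against RefSeq gene models of the same assembly. There, 647 members (13.5%) overlapped a gene, 520 of them a long non-coding RNA and 103 a coding gene. The same was true of 19.1% of shared and 15.0% of WT-only intergenic peaks. No member lay on any of the 1005 miRNA hairpins of RefSeq, and 8 were within 5 kb of one.

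Some members stood in groups, as did peaks of other sets. The median distance to the next member was 83801 bp, and 562 (11.7%) had another within 10 kb. Another peak of the same set was that near for 11.3% of the 3167 shared intergenic peaks and 14.1% of the 6853 HET-only gene-body peaks. Of the 738 WT-only intergenic peaks, 2.17% had one. The densest stretches of up to 100 kb held 6 members each. One was at chr4:12452147-12538967, with no WT peak in it and no tested gene within 50 kb. A second, chr14:67123401-67156769, also had no tested gene that near, and held 1 WT peak and 1 shared HET peak. The third, chr15:77336434-77368437, began 29430 bp from the start of Rbfox2, which encodes a neuronal splicing regulator. This stretch too held 1 WT peak and 1 shared HET peak, and Apol7a was also a tested gene within 50 kb. Rbfox2 RNA was 227, 238 and 259 CPM (counts per 1000000 counts of the library; lowest, median and highest of 7 libraries) in HET and 218, 244 and 306 in WT, and did not pass the test. Groups of 5 without any WT peak lay 70957 bp from the start of Snap25, a SNARE protein of synaptic vesicle release, and 2794 bp from that of Stim2, a calcium sensor of the endoplasmic reticulum. Mkks was also a tested gene within 50 kb of the former group, and Tbc1d19 of the latter. A further group of 5 without a WT peak, chr9:43593341-43692657, had only a Gm model tested within 50 kb. Snap25 was at 1614, 1974 and 2300 CPM in HET and 1568, 2464 and 3216 CPM in WT (edgeR adjusted p = 0.12). Stim2 was at 46.3, 62.4 and 98.9 CPM in HET and 61.5, 80.7 and 106 CPM in WT (edgeR adjusted p = 0.266). The ranges of the genotypes overlapped for Rbfox2, Snap25 and Stim2, which were picked for these groups of peaks after their values had been seen.

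Each member was assigned to the gene with the nearest start, which gave 3874 genes. Of these, 3169 had 1 member, 541 had 2 and 5 had 6. Many are poorly known models: 3036 members (63.2%) were nearest to a gene with a Gm or Rik symbol. Among the 2609 genes matched to RefSeq by symbol, 1178 were coding, 671 pseudogenes and 510 long non-coding RNAs. No count in any of the 14 RNA libraries was found for 1332 genes (34.4%). With 32814841 to 48291175 counts per library, a count of 0 allows up to 3 counts, or 0.0621 to 0.0914 CPM. Enough reads for testing were present for 1191 genes (30.7%), a share close to the 32.5% of all 55487 genes. All results below rest on these 1191 genes, which stand for 1426 of the 4802 members.

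Tested nearest genes had a median WT level of 4.71 CPM per kb of exon, against 3.46 for all 18050 tested genes and 5.35 for those nearest to shared intergenic peaks. At the start of the nearest tested gene, both lists had a peak for 581 genes (48.8%), neither list for 467 (39.2%), the HET list alone for 118 and the WT list alone for 25. For most of these genes, then, either both lists or neither had a peak within 1 kb of the start. The lists hold no signal, so a missing peak does not show that the start was closed.

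By edgeR, nearest genes were called changed in RNA at a share near that of all tested genes. The test was edgeR's quasi-likelihood test over all 18050 genes with Benjamini-Hochberg adjustment, and a gene was called at an adjusted p under 0.05. It called 14 of the 1191 genes (1.18%), against 0.970% of all tested genes, so the share was near the background. Higher in HET were 8, where 0.587% of all genes were, and lower were 6, where 0.382% were. At an unadjusted p under 0.05 there were 307 (25.8%), against 22.2% of all genes. DESeq2 called 118 of 1138 (10.4%), against 8.66% of all genes, and split them differently, with 41 higher and 77 lower. Over all 17350 genes that DESeq2 tested, 768 were called higher and 735 lower, so the nearest genes leaned more towards lower calls there. The median log2 fold change was -0.02, where it was 0.02 over all tested genes and -0.05 for genes nearest to shared intergenic peaks. All HET libraries stood above all WT libraries for 9 genes, against 0.432% of all genes, and below for 2, against 0.283%. The first 9 are the 8 called genes that rose and Smarcal1, whose adjusted p was 0.083; Txn2 and Cxcl12 are the other 2. Called genes were 4 of 194 tested for members at 1 to 5 kb, 7 of 545 at 5 to 20 kb, 3 of 371 at 20 to 50 kb, 1 of 179 at 50 to 200 kb and 1 of 12 beyond 200 kb. A gene with members in several of these bands counts in each.

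**Figure D3:**
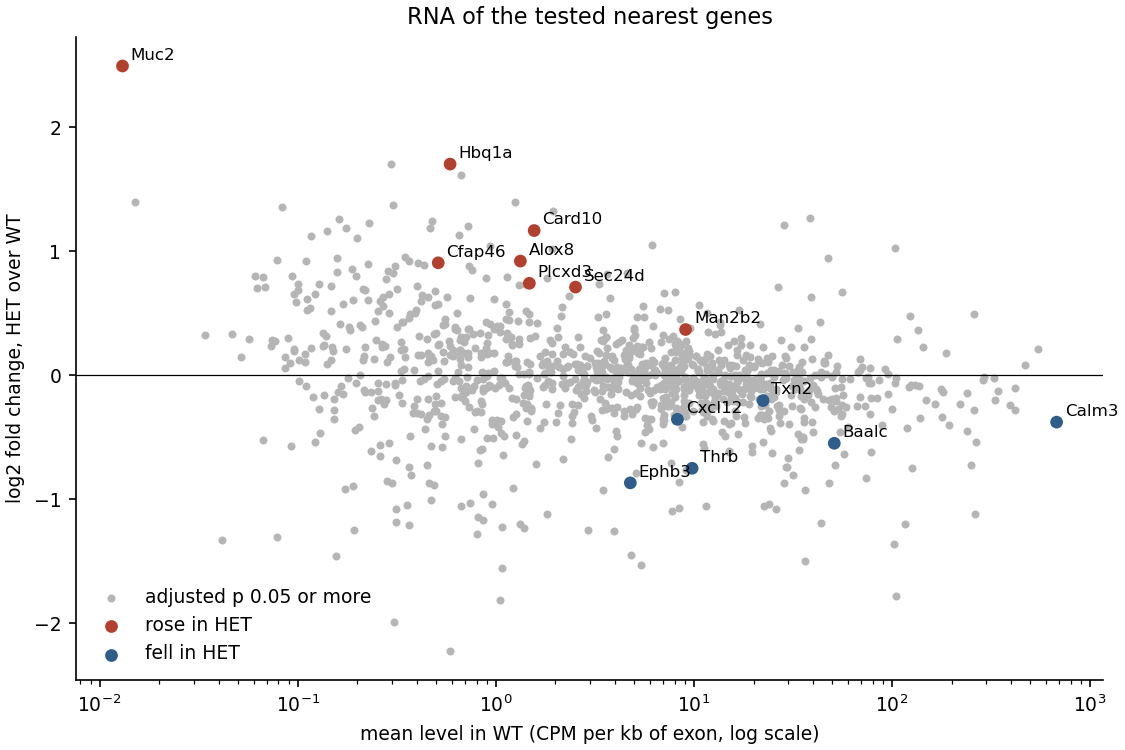
Each point is 1 of the 1191 tested nearest genes, with its mean WT level (CPM per kb of exon, log axis) and its log2 fold change of HET over WT. Coloured and named points are the 14 called genes, 8 of which rose (red) and 6 of which fell (blue), and the remainder spread around 0.

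Libraries differed in cell type markers. Summed markers of excitatory neurons ran from 1456 CPM (HET 4) to 5639 CPM (HET 6) in HET and from 2703 CPM (WT 4) to 6673 CPM (WT 2) in WT. Striatal projection neuron markers ran from 170 to 2364 CPM in HET and from 183 to 1761 CPM (WT 4) in WT, and thalamic ones from 160 to 1710 CPM (HET 4) and from 151 to 607 CPM (WT 7). Oligodendrocyte lineage markers ran from 1933 CPM (HET 6) to 8307 CPM (HET 4) in HET and from 3701 to 6216 CPM in WT. Those of choroid plexus ran from 29.9 to 54.2 CPM in HET and from 6.97 to 60.7 CPM in WT. None of the markers of any of the 9 cell type lists was at 0. In bulk tissue, fewer cells of a type and less RNA per cell cannot be told apart. Without WT 4, 152 of 1205 tested nearest genes were called, beside 1672 of all 18223 tested genes. Without HET 6 these counts were 88 of 1203 and 1110 of 18233. They were 21 of 1205 and 241 of 18255 without HET 5, and 12 of 1205 and 109 of 18235 without HET 3. Called nearest genes numbered 6 without WT 7 and 3 without WT 2, beside 41 and 29 of all genes. They numbered 2 without each of HET 1, 2, 4 and 7 and WT 1, 3, 5 and 6, beside 11 to 20 of all genes. The part of tissue makeup in the calls was not tested.

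Sec24d, a cargo adaptor of the COPII coat that buds vesicles from the endoplasmic reticulum, rose. Its member, chr3:123264811-123265149, was 339 bp wide, lay 2306 bp upstream of the start, and was 1967 bp from the nearest WT peak. Levels were 22.7, 27.2 and 28.0 CPM (lowest, median, highest) in HET and 12.6, 15.8 and 21.0 in WT. Every HET library was above every WT library, with a log2 fold change of 0.71 ± 0.10 (SE, n = 7 and 7, edgeR adjusted p = 0.00364). Card10, a scaffold protein that links receptors to NF-kappaB, also rose. The HET libraries spanned 12.04, 16.7 and 23.6 CPM and the WT libraries 6.33, 7.57 and 9.10. The change was 1.17 ± 0.16 on the log2 scale (edgeR adjusted p = 0.00379), with no overlap. A member at chr15:78806872-78807056 was 3830 bp upstream, and neither list had a peak at the Card10 start. These 2 genes alone stayed called in each of the 14 fits without 1 library, with adjusted p of at most 0.0158 and 0.0163.

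The other 6 genes that rose had their HET and WT libraries apart as well, but kept the call in only 4 to 6 of the 14 fits. Alox8, a lipoxygenase, stood at 6.01, 9.45 and 12.6 CPM in HET and 3.78, 4.74 and 5.69 in WT (log2 fold change 0.92 ± 0.17, edgeR adjusted p = 0.0352). Its member of 649 bp lay 13458 bp upstream. Plcxd3, of the phosphatidylinositol-specific phospholipase C family, stood at 11.2, 11.7 and 15.1 CPM against 5.11, 7.51 and 9.93, a difference of 0.74 ± 0.14 (adjusted p = 0.0352). Man2b2, a lysosomal mannosidase, rose by 0.37 ± 0.07 (adjusted p = 0.0375), from 26.8, 32.8 and 35.5 CPM to 36.2, 41.0 and 44.2. Cfap46, a protein of the ciliary axoneme, rose by 0.91 ± 0.19 (adjusted p = 0.0456), from 2.77, 4.51 and 6.18 CPM to 6.83, 8.16 and 10.8. An overlapping gene on the same strand, Gm4459, is counted separately.

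The remaining 2 genes that rose had few counts. Muc2, a secreted gel-forming mucin, was at 0.331, 0.528 and 0.885 CPM in HET and 0, 0.0929 and 0.214 in WT, and rose by 2.49 ± 0.45 (edgeR adjusted p = 0.0332). Hbq1a, of the alpha-globin cluster, was at 0.787, 1.15 and 1.57 CPM in HET and 0.107, 0.338 and 0.553 in WT, and rose by 1.70 ± 0.30 (adjusted p = 0.0305). It had 2 members downstream, 3069 and 21196 bp from its start. Hba-a1, an adult alpha-globin picked after its values had been seen, was at 45.0, 66.4 and 85.0 CPM in HET and 56.0, 99.5 and 179 CPM in WT (adjusted p = 0.161). Reads shared by near-identical globin genes are left out of such counts by default.

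**Figure D4:**
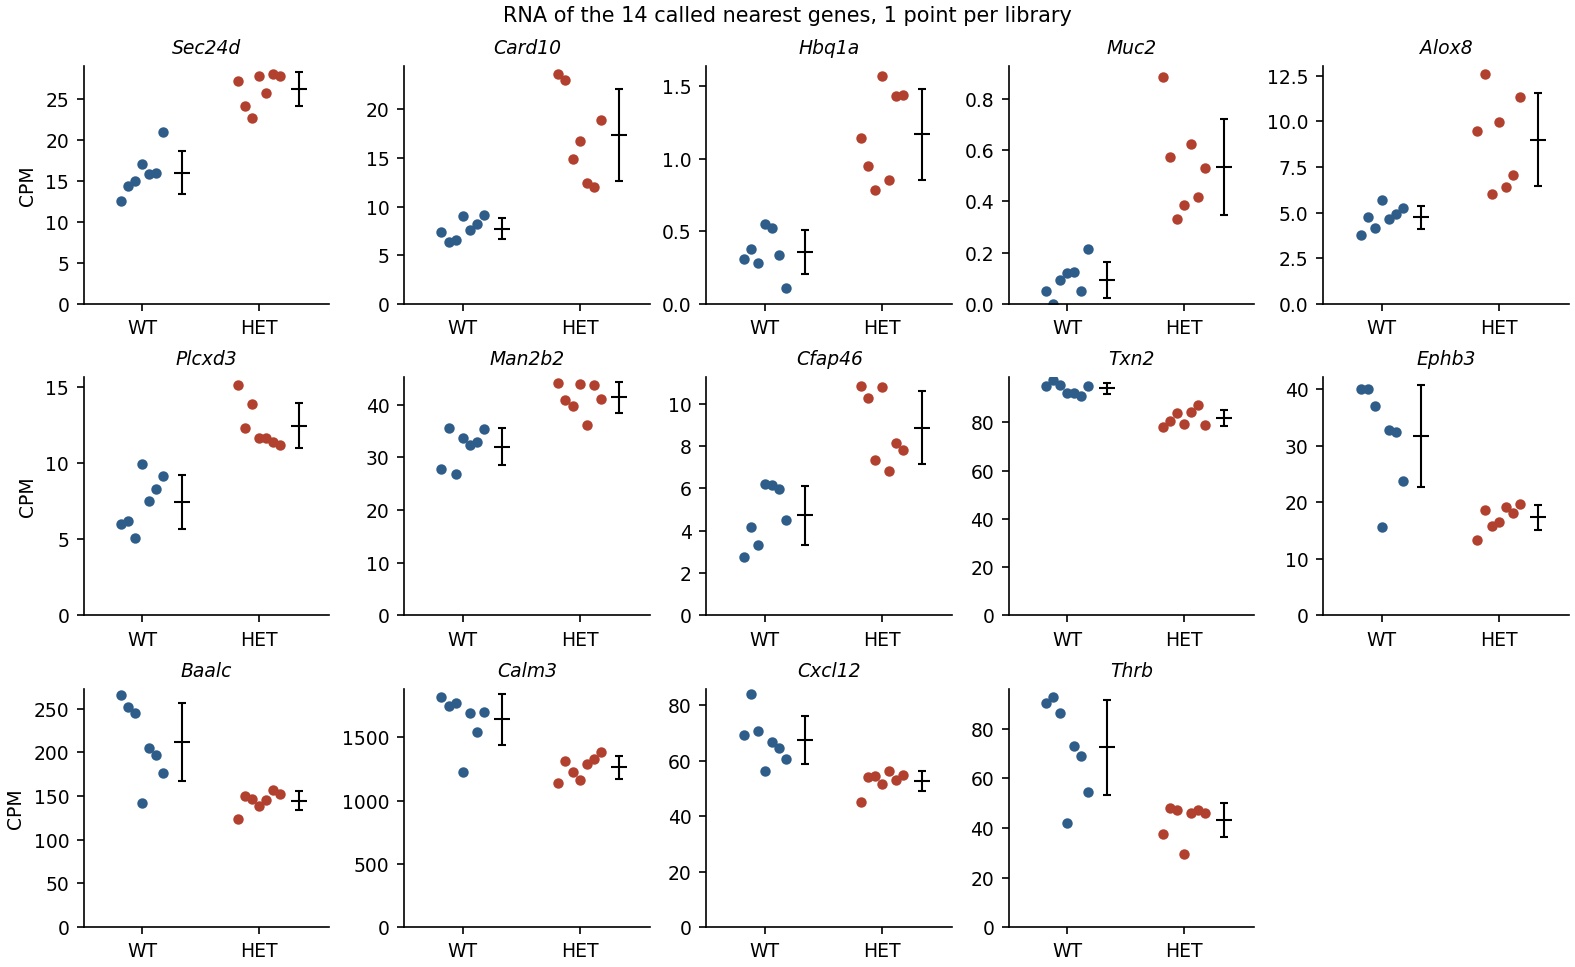
CPM of each library (points) for the 14 called nearest genes in WT (blue) and HET (red), with the mean and SD of 7 libraries beside them, on axes that start at 0. The first 8 panels show genes that rose, with no overlap, and WT 4 lies among the HET values for Ephb3, Baalc, Calm3 and Thrb.

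Of the 6 genes that fell, each kept the call in 2 to 4 of the 14 fits, and Txn2 and Cxcl12 had every HET library below every WT library. Txn2, the mitochondrial thioredoxin, stood at 78.1, 80.3 and 87.0 CPM in HET and 90.9, 95.1 and 97.6 in WT, and fell by 0.20 ± 0.04 on the log2 scale (edgeR adjusted p = 0.0375). Cxcl12, a chemokine that guides migrating neurons and interneurons, stood at 45.2, 54.3 and 56.2 CPM against 56.4, 66.7 and 83.9, and fell by 0.36 ± 0.08 (adjusted p = 0.0472). Its member, chr6:117167175-117167377, lay only 1158 bp upstream, the shortest distance among the called genes, and 112109 bp from any WT peak.

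The remaining 4 overlapped between genotypes through WT 4 alone. Without WT 4 all of them kept their calls, but of the 14 fits that each leave out 1 library, 3 called Ephb3 and 2 called each of Baalc, Calm3 and Thrb. Ephb3, a receptor for ephrin-B ligands, had 3 members 11834 to 22301 bp upstream. It was at 13.4, 18.2 and 19.8 CPM in HET and 15.7, 32.9 and 40.1 in WT, where 15.7 is WT 4, and fell by 0.87 ± 0.18 (edgeR adjusted p = 0.042). Baalc, a membrane-associated protein of brain, had 2 members, 25650 and 42537 bp upstream. Its levels were 123, 146 and 157 CPM in HET and 142, 205 and 265 in WT, with WT 4 lowest, and it fell by 0.55 ± 0.12 (adjusted p = 0.0461). Calm3, one of the genes for calmodulin, was the most abundant of the called genes, at 1140, 1292 and 1386 CPM in HET and 1224, 1702 and 1819 CPM in WT. It fell by 0.38 ± 0.08 (adjusted p = 0.0472). Its member, chr7:16931904-16932367, carries the Gm32630 start printed above and is 1 of 5 members in 98.7 kb. Thrb, a thyroid hormone receptor, was nearest to a member 257089 bp away and fell by 0.75 ± 0.17 (adjusted p = 0.0499), from 41.9, 72.9 and 92.8 CPM to 29.7, 46.2 and 48.1. Without a filter on low counts, the calls of Ephb3, Thrb and Txn2 were lost, with edgeR adjusted p of 0.0578, 0.0939 and 0.093. Gene models on the opposite strand overlapped Baalc (1 model) and Thrb (3 models), and counting ignored strand. None of these models had enough reads for the test.

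Most of these genes had further peaks nearby. Within 50 kb of the start, Calm3 had 5 shared and 5 HET-only peaks, Txn2 had 4 shared and 1 HET-only, and Ephb3 had 1 shared and 5 HET-only. Card10 and Cxcl12 had no shared peak in that span, but 4 and 3 HET-only ones. Muc2 had its member and no other peak of either list there. A WT-only peak was present for Cfap46 alone, with 1.

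Of the 45 genes nearest to 4 or more members, 39 had Gm or Rik symbols, among them all 9 genes with 5 or 6 members, and 4 had enough reads for the test. Dkk3, a secreted relative of the Wnt inhibitors, had 4 members between 6232 and 33303 bp upstream, 157 to 561 bp wide. Dkk3 RNA was at 39.8, 151 and 190 CPM in HET and 88.8, 331 and 537 CPM in WT, with 2 HET libraries below all WT ones (log2 fold change -1.36 ± 0.40, edgeR adjusted p = 0.0864). Mical2, an actin-oxidising enzyme whose start is on the other side of the same group of peaks, was at 77.4, 202 and 259 CPM in HET and 121, 406 and 600 CPM in WT (adjusted p = 0.0903). Tle4, a transcriptional corepressor of deep-layer cortical neurons, also had 4 members, from 22610 bp upstream to 289559 bp downstream. It was at 47.9, 52.9 and 76.6 CPM in HET and 57.7, 62.2 and 74.3 CPM in WT (adjusted p = 0.498). Nwd2 had 4 members up to 317641 bp upstream and was at 29.2, 35.5 and 51.8 CPM in HET and 25.8, 48.5 and 69.9 CPM in WT (adjusted p = 0.386). Gnat3, the taste transducin, with 4 members, and Crisp4 and BC049739, with 3 each, had no count in any library. Nfasc, an adhesion protein of the axon initial segment and node, had 3 members upstream, and Itga11, a collagen-binding integrin, also 3; their adjusted p values were 0.741 and 0.959.

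Among genes by the widest members, Hid1, which acts in sorting to dense core vesicles, had a member of 1118 bp at 6422 bp upstream, and was at 96.9, 102 and 110 CPM in HET and 98.2, 118 and 130 in WT (edgeR adjusted p = 0.124). Kcnmb4os1, with a member of 956 bp, reached at most 0.0829 CPM in HET and 0.129 CPM in WT and was not tested.

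Activity-regulated genes are switched on by neuronal firing within minutes to hours. Of the 18 on the list, 5 were nearest to 7 members, and each of these 5 had a member within 2427 bp of a WT peak. Arc, which regulates synaptic glutamate receptors, had a member 4631 bp upstream and 1314 bp from a WT peak. Arc RNA was at 26.7, 113 and 159 CPM in HET and 147, 288 and 621 CPM in WT, with 6 HET libraries below all WT ones (log2 fold change -1.78 ± 0.47, edgeR adjusted p = 0.0721). Fos had members on either side, 5698 bp upstream and 13975 bp downstream, and was at 12.2, 30.5 and 67.1 CPM in HET and 22.7, 66.3 and 117 CPM in WT (adjusted p = 0.193). Nptx2, a secreted pentraxin of excitatory synapses, had members 2590 bp upstream and 77409 bp downstream. It was at 38.5, 47.6 and 49.0 CPM in HET and 34.7, 75.9 and 93.5 CPM in WT, where WT 4 was again the lowest (adjusted p = 0.0516). Egr1 and Nr4a1, both transcription factors, had 1 member each, 7604 and 13221 bp upstream, and adjusted p of 0.0643 and 0.0953. By edgeR 0 of the 5 were called, though all 5 had an unadjusted p under 0.05 (22.2% of all genes did) and DESeq2 called 4 (8.66% of all genes); of the rest of the list, Dusp6 fell. Over the whole list the median log2 fold change was -0.92. The excitatory marker sums had a median of 3352 CPM over the HET libraries, against 5035 CPM over the WT libraries. Their ranges overlapped, and HET 6, at 5639 CPM, was above WT 4, 5, 6 and 7. Whether tissue makeup had a part in the list's median was not tested.

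Of the 41 Wnt pathway genes, which are central to cortical patterning and named in the title of the series, 8 were nearest to 12 members. By edgeR 0 of the 8 were called, with 5 at an unadjusted p under 0.05 and 3 called by DESeq2, beside the same 22.2% and 8.66% of all genes. Ligands among them were Wnt2b, Wnt5a, Wnt7a and Wnt7b. Wnt2b had 2 members, 5380 and 5952 bp upstream, and was at 3.54, 4.89 and 7.38 CPM in HET and 3.12, 3.68 and 4.87 CPM in WT (edgeR adjusted p = 0.157). Wnt5a, 17912 bp from its member, was at 13.1, 14.7 and 20.3 CPM in HET and 8.70, 10.8 and 14.3 CPM in WT (adjusted p = 0.0694). Among receptors, Fzd1 was at 14.8, 26.8 and 35.1 CPM in HET and 13.3, 15.3 and 18.7 CPM in WT (adjusted p = 0.0798), with its member 261542 bp away. Secreted inhibitors of the pathway near members were Sfrp2 (adjusted p = 0.387) and the related Dkk3. Lef1, a transcription factor at the end of the pathway, had a member 25052 bp upstream. It was at 2.35, 9.35 and 31.0 CPM in HET and 3.07, 3.44 and 9.05 CPM in WT (adjusted p = 0.175), and its highest libraries, HET 4 and WT 7, were also the highest of their genotype in the thalamic marker sum, of which Lef1 is a part. Of the list's 40 tested genes Wnt10a alone was called, and it fell.

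**Figure D5:**
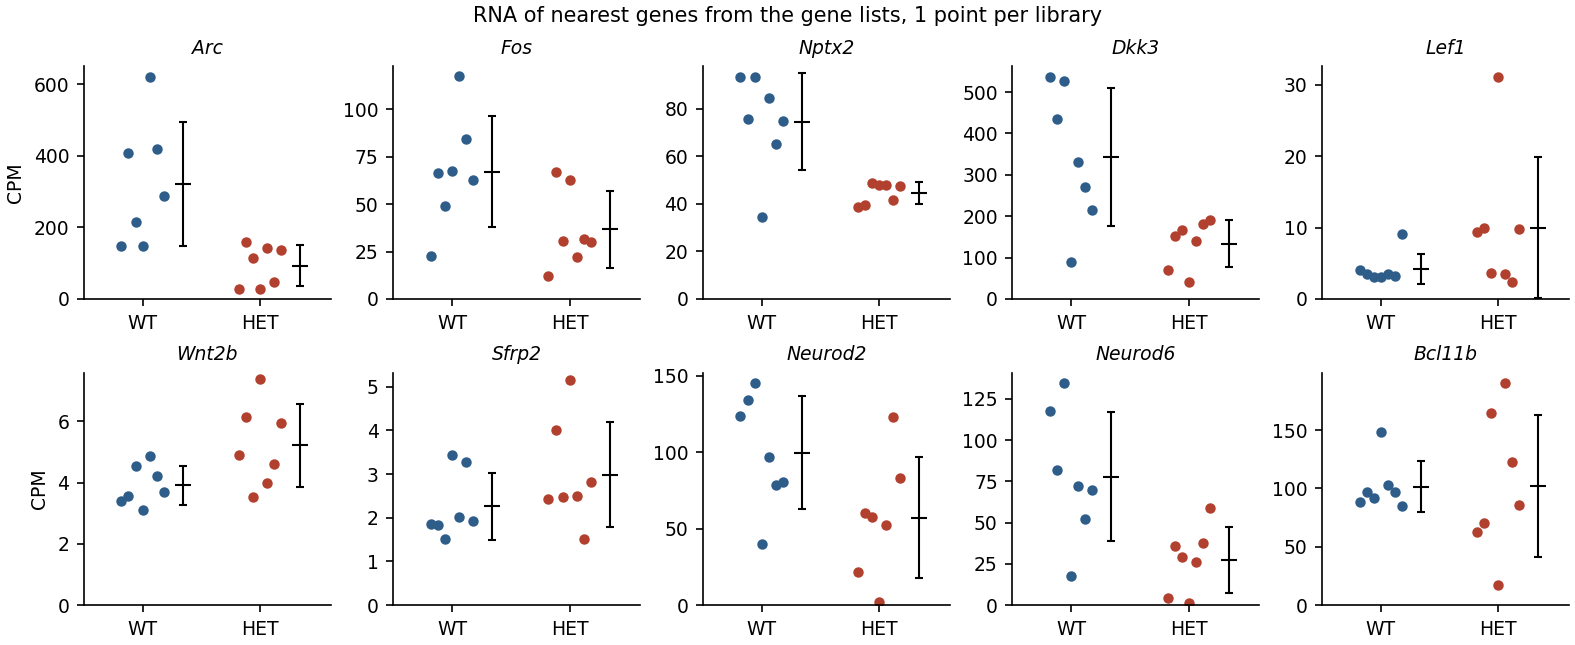
CPM of each library (points) for 10 nearest genes from the gene lists in WT (blue) and HET (red), with the mean and SD of 7 libraries beside them, on axes that start at 0. HET and WT overlap in every panel; in Arc, 6 HET libraries lie below all WT ones, with an adjusted p of 0.0721.

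Marker genes of excitatory and striatal neurons with a member nearby varied widely between libraries. Neurod2 and Neurod6, transcription factors of excitatory cortical neurons, had members 15583 and 33684 bp downstream. Neurod6 was at 1.13, 29.3 and 58.6 CPM in HET and 17.4, 72.5 and 134 CPM in WT (edgeR adjusted p = 0.182), and HET 4 and WT 4 were the lowest of their genotypes. Bcl11b, of deep-layer and striatal neurons, was at 17.1, 85.8 and 191 CPM in HET and 84.8, 96.5 and 149 CPM in WT (adjusted p = 0.995). Striatal genes near members, Drd1, Penk and Rgs9, had adjusted p of 0.898, 0.835 and 0.729. The astrocyte and inhibitory neuron lists each had 1 gene nearest to a member. Neither gene was called by edgeR or DESeq2, and the astrocyte gene alone had an unadjusted edgeR p under 0.05. Of 47 neurodevelopmental transcription factors, 6 were nearest to 9 members. Of these 6 genes edgeR and DESeq2 called 0, with 3 at an unadjusted p under 0.05. Meis1, a homeobox factor, had its member 1466 bp upstream and 814230 bp from any WT peak, and was at 4.48, 7.60 and 9.68 CPM in HET and 1.05, 2.91 and 8.51 CPM in WT (adjusted p = 0.19). Cell adhesion and guidance genes gave 5 of 55, with 7 members. Of these 5, edgeR called 0, DESeq2 1, and 2 had an unadjusted p under 0.05. Over all tested genes edgeR called 0.970%, DESeq2 8.66%, and 22.2% had an unadjusted p under 0.05. Robo2 was at 46.7, 110 and 147 CPM in HET and 92.2, 116 and 160 CPM in WT (adjusted p = 0.607).

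ADNP partners and loop proteins gave 1 of 18, the cohesin subunit Rad21, with its member 33054 bp away and an adjusted p of 0.651. On that list the cohesin subunit Stag1 rose and is not nearest to any member. Germline genes gave 2 of 20. Dazl, an RNA-binding protein of germ cells, had a member 15960 bp upstream and was at 0.617, 2.61 and 5.20 CPM in HET and 3.46, 3.74 and 4.81 CPM in WT (edgeR adjusted p = 0.466). Piwil1, a small-RNA-binding protein of the testis, was at most 0.375 CPM and was not tested. Of the 14 germline genes tested, 6 rose (Sycp2, Rec8, Rnf17, Prss50, Tdrd9 and Prss41), and none of these 6 was nearest to a member. The lists were drawn up with earlier results of these data known, so their directions are no independent evidence.

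The RefSeq genes whose start windows overlapped members were mostly not in the count tables: 9 of 64 were there and 4 were tested. Of these 4, edgeR and DESeq2 called 0, with 0 at an unadjusted p under 0.05. Over all tested genes these shares were 0.970%, 8.66% and 22.2%.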

How the data were processed

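RNA was total RNA of frontal cortex, and the authors deposited raw counts per gene in 1 table for each of 14 libraries. Reads on exons of Ensembl release 102 (GRCm38) were counted by featureCounts 2.0.1 with strand ignored, per the file headers, so a gene and its antisense partner cannot be told apart. STAR, Trimmomatic and DESeq2 were used for RNA and Bowtie2 2.4.4, SAMtools 1.9 and MACS3 for ATAC-seq, per the submitters' processing notes. Each list is a merge of 2 samples by its deposited name; no source used here states the peak settings, the way of merging or the library depth. The 2 deposited peak lists give chromosome, start and end on mm10, the assembly of GRCm38, and no score.

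Peaks were compared at a minimum overlap of 1 bp, and each was assigned to the nearest Ensembl gene start. Counts were tested with edgeR 4.0.16 (TMM, filterByExpr, quasi-likelihood test, Benjamini-Hochberg adjustment over 18050 genes), with DESeq2 1.42.0 as an alternative. Totals were 32814841 to 48291175 counts per library. CPM values use TMM library sizes. The edgeR step was tested on simulated data. RefSeq gene models and start windows of GRCm38.p6 were matched by position, and gene symbols paired 55141 of 55487 IDs.

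The members and the gene lists were chosen with earlier results of these data known. Named genes were all called nearest genes, those with the most members or the widest ones, list genes and those at the 1 kb limit; models with Gm or Rik symbols were named only if called. Whether libraries of a genotype came from separate cultures or cages is not stated beyond 7 mice each. Replicate numbers were checked for pairing and did not pair the samples. The Hi-C samples and the PAT and Control ATAC-seq samples were not analysed here. One nearest gene that the naming rule picked is not reported here.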

Additional observations from a re-analysis of the deposited data

Results flagged for a closer look

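Among 104 groups (52 named nearest genes in 2 genotypes of 7 libraries), 9 had a library far from the rest, by a criterion that chance meets in about 1 in 20 groups. WT 4 was the highest WT library for Bcl11b, at 148.6 CPM against a median of 96.5, and for Tle4, at 74.3 CPM against 62.2. HET 1 was the lowest HET library for Cxcl12, at 45.2 CPM against 54.3.

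Lef1 was set apart in both genotypes, in HET 4 at 31.0 CPM against a median of 9.35 and in WT 7 at 9.05 CPM against 3.44. These are also the libraries with the highest thalamic marker sums of their genotype, 1710 and 607 CPM, and whether this accounts for the values was not tested. Nrp1 was highest in HET 7, at 35.4 CPM against 23.9, and Sox4 in HET 5, at 38.2 CPM against 29.6. Tuba1a was highest in WT 7, at 624.7 CPM against 510.5. Kcnmb4os1 reached 0.0829 CPM in HET 3, a level near that of a few reads.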

How the results depend on the processing

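Calling a peak shared only when at least 50% covered gave 5099 members with a median width of 285 bp. A 5 kb gene start window gave a median distance of 26177 bp, and taking the nearest tested gene gave 70658 bp with 36 called of 2991 genes. Members at or above the median HET width numbered 736, with a median of 488 bp and 3 called of 204 tested nearest genes. With the HET list reduced to the length of the WT list, chosen after seeing the data, there were 1434 members. Their median width was 425 bp, with 3 called of 385 tested nearest genes. Of all tested genes, 0.970% were called in the main fit. DESeq2 called 118 nearest genes and 1503 in all. Without a low-count filter the median log2 fold change of nearest genes was 0.0043 over 2542 genes, against 0.0388 over all 35384 genes of that fit. It called 11 nearest genes and 106 genes in all. The cause of these shifts was not tested, other than that the stricter sets hold fewer genes. Leaving out 1 library moved the called nearest genes between 2 and 152 and all called genes between 11 and 1672 (175 with every library), while the median log2 fold change stayed between -0.04 and -0.01.

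With the replicate number as a block, 1 nearest gene (Sec24d) and 10 genes in all were called. The numbers share only a label: correlations of same-numbered libraries ran from -0.284 to 0.334, and only replicate 4 matched its own number best. None of the named results changed direction with a call under the alternatives run. Peak counts carry no replicate, and the depth behind either list is unknown.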

Other observations

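A member at chr12:109525949-109526320 lay in the imprinted domain between Dlk1, a Notch-like transmembrane protein expressed from the paternal copy, and Meg3, a long non-coding RNA expressed from the maternal copy. It was 73126 bp from the start of Dlk1 and 14681 bp from that of Meg3, and it overlapped the RefSeq start window of Gm34081. Meg3 was at 2084, 2900 and 3245 CPM (lowest, median and highest of 7 libraries) in HET and 1643, 2290 and 2690 CPM in WT (log2 fold change 0.35 ± 0.11, edgeR adjusted p = 0.108). Dlk1 was at 30.4, 50.8 and 159 CPM in HET and 1.21, 32.1 and 102 CPM in WT (edgeR adjusted p = 0.468). The genotypes overlapped for both genes, which were picked after their values had been seen.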
